A study of Homo sapiens with 8 samples.

Results

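Wnt signaling was followed through 10 genes across the 4 groups of arrays: the ligands WNT5A, WNT7A and WNT7B, the secreted inhibitors DKK1, DKK3 and SFRP1, the receptors FZD6 and FZD7, and the pathway's own targets AXIN2 and LEF1. They are 10 of the 19775 genes that the arrays name and were chosen by gene symbol. Their 26 probe sets are those, of 54613, that name no other gene. Each gene is given by its probe set with the highest mean level, with its other probe sets as a check. The cells under study were trMCF clone 11, a single colony picked by ring cloning from human breast epithelial MCF-10F cells transformed with a high dose of estradiol, untreated or after 26 days in 1 μM or 10 μM all-trans retinoic acid (ATRA). The parental line MCF-10F, normal-like and not transformed, was the reference for the clone, and each group held 2 Affymetrix U133 Plus 2.0 arrays. DMSO was the vehicle, and it is not stated if the untreated clone on these arrays received it. Nor is it stated if paired arrays stem from different cultures, so p-values measure only the spread between arrays, which may be technical. A single clone stands for all transformed cells here.

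Levels are log2 of the deposited signal, an intensity with no absolute unit, so levels were not set against each other between genes. Differences are log2 differences between group means, where 1 is a 2-fold change. A gene is said to have risen or fallen where limma's moderated test gave a Benjamini-Hochberg adjusted p under 0.05 over all 54613 probe sets. A rule of at least 2-fold with a p of at most 0.05, after the methods' criteria, is counted beside it as the methods' rule. The p was taken as unadjusted here, since the methods name no adjustment. Median signal was 47.3 to 48.8 over the 8 arrays, and 21.5 to 23.7% of signals were under 16, the level treated here as near background. The arrays of the untreated clone lay farthest apart, where 7.71% of probe sets differed over 2-fold between the pair, and 0.126% at 1 μM ATRA, 0.211% at 10 μM ATRA and 3.48% in MCF-10F. The labels tag replicate 1 of the clone as normal, against its title, and it was grouped by title. All groups held the epithelial markers CDH1 (E-cadherin), at a mean of 12.19 to 12.49, and EPCAM, at 12.59 to 12.80, and KRT8 and KRT18 were bright as well. KRT19 was dim, at a mean of 4.88 to 5.63, and DSP fell by 1.13 at 10 μM ATRA against the clone (adjusted p = 0.0137). The leukocyte marker PTPRC was under 16 on average in every group. The immune markers CD14, CD3E and CD79A were above 16 in every group, CD14 with a mean signal of 129 to 616.

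Wnt ligands are secreted lipid-modified proteins that bind Frizzled receptors on the same or a neighboring cell. In the canonical branch this stops the breakdown of β-catenin, which then enters the nucleus and, with TCF/LEF factors, switches on targets such as AXIN2, a brake on the pathway itself. Ligands such as WNT5A act mostly through a branch without β-catenin that steers cell polarity, movement and calcium release. Dickkopf proteins such as DKK1 block the co-receptors LRP5 and LRP6, and SFRP proteins bind the ligands outside the cell. In the mammary gland Wnt signals are known for their part in ductal branching and stem cell upkeep.

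The start regions of DKK1 and WNT5A, the pair whose levels moved most, are shown for the known elements that lie in them. RefSeq promoter windows (GRCh38.p14, 250 bases before to 50 after the start) were matched for 4 of the 10 genes, namely DKK1, WNT5A, WNT7A and LEF1. Windows of a single chromosome were left out before this match, so a gene not named here may still have a window. The letters CTTTGA, the core bound by TCF/LEF factors, the retinoid half-site AGGTCA, the direct repeat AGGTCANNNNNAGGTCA and TATAAA were searched on both strands. Capitals mark the matches.
DKK1, chr10:52314031-52314330, plus strand: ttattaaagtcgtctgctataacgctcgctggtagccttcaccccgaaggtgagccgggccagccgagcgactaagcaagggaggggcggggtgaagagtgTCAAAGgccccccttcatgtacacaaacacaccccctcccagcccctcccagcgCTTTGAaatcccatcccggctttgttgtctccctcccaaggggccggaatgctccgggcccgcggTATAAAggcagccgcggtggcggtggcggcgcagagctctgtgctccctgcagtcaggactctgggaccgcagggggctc
WNT5A, first start, chr3:55487257-55487556, minus strand: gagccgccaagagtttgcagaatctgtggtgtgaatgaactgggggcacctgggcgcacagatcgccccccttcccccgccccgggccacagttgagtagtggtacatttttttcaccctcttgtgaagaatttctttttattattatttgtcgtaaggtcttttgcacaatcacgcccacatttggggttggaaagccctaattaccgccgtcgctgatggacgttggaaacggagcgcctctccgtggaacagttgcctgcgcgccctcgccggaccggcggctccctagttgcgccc
WNT5A, second start, chr3:55481349-55481648, minus strand: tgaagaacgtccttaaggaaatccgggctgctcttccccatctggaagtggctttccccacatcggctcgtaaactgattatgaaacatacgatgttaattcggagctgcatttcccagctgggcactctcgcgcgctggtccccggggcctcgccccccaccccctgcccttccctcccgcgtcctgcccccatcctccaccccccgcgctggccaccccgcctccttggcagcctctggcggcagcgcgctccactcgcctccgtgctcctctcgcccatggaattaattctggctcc
The DKK1 window held the TCF/LEF core at 2 places, which begin at -149 and -95 from the start, and TATAAA at -30, and no AGGTCA. Of 35116 promoter windows, 12.9% held CTTTGA, 11.5% held TATAAA, 13.8% held AGGTCA and 0.0057% held the repeat. None of these letters occurred in either WNT5A window, nor in those of WNT7A and LEF1, which says only that they are not in these 300 bases.

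DKK1 and WNT5A differed more between groups than the other 8 genes, most of which differed by less than 2-fold. In trMCF clone 11 against MCF-10F, DKK1 fell, none of the 10 rose, and 2 (DKK1 and WNT5A) were lower by the methods' rule. Over all genes 2.64% fell and 1.88% rose, and by the methods' rule 5.96% were lower and 3.24% higher, where none of the 10 was higher. With 1 μM ATRA none of the 10 rose or fell against the untreated clone, where 0.971% of all genes rose and 0.925% fell, and DKK1 alone was higher by the methods' rule, beside 4.87% of all genes higher and 3.02% lower. With 10 μM ATRA none of the 10 rose or fell against the clone either, where 3.94% of all genes rose and 3.89% fell, and DKK1 was again the 1 gene higher by the methods' rule, beside 4.66% of all genes higher and 3.67% lower. The median change of the 10 was 0.02, -0.07 and -0.06 in these comparisons, beside 0.06, -0.06 and -0.01 over all genes. The arrays of the clone and MCF-10F did not overlap for 3 of the 10, beside 48.3% of all genes, and those of treated and untreated clone for 6 of the 10 at either dose, beside 54.5% at 1 μM and 48.7% at 10 μM, which are shares near or below the background. At an unadjusted p under 0.05 alone, the limma fits counted as many of the 10 as the methods' rule in every comparison (0 to 2), and the share of all genes at that p was not counted.

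**Figure D1:**
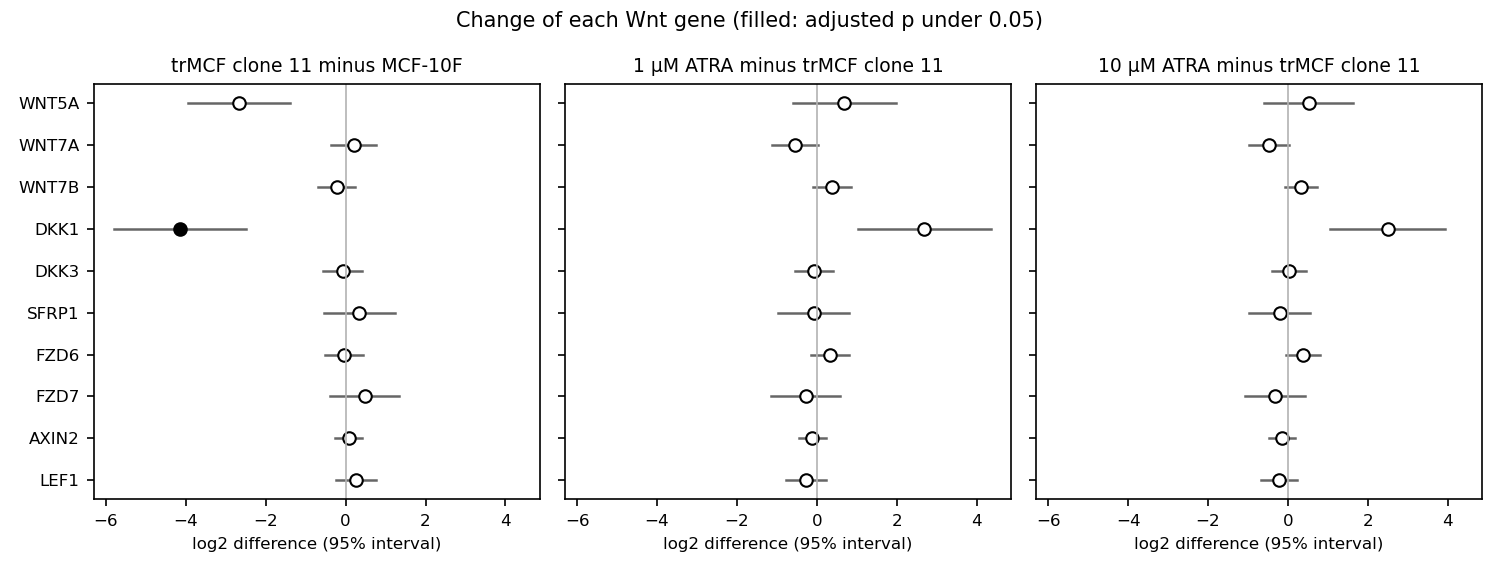
Log2 difference of each of the 10 Wnt genes (points) with its 95% interval (lines), for trMCF clone 11 minus MCF-10F (left), 1 μM ATRA minus trMCF clone 11 (middle) and 10 μM ATRA minus trMCF clone 11 (right). Filled points have an adjusted p under 0.05. DKK1 at -4.14 on the left is the only filled point, and DKK1 at 2.70 and 2.50 lies farthest from 0 in the other panels.

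DKK1 encodes a secreted antagonist of canonical Wnt signaling and is itself a known β-catenin target. Its probe set read 9.42 and 7.38 in trMCF clone 11, 11.08 and 11.11 at 1 μM ATRA, 10.95 and 10.86 at 10 μM ATRA, and 13.04 and 12.03 in MCF-10F. Every treated array was above both arrays of the untreated clone and below both of MCF-10F, and no groups overlapped. Group means were 8.40 ± 1.44 in the clone, 11.10 ± 0.02 at 1 μM, 10.90 ± 0.06 at 10 μM and 12.54 ± 0.71 in MCF-10F (SD, n = 2 each), or mean signals of 425, 2188, 1915 and 6317. In bulk RNA, fewer cells that express a gene and less of it per cell cannot be told apart.

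DKK1 fell by 4.14 in the clone against MCF-10F, or 17.6-fold lower (SE 0.67, 95% interval -5.79 to -2.48, adjusted p = 0.0384). The change stood at -3.12 to -5.16 over 14 alternatives, of which 8 kept it past the threshold, with adjusted p of 0.0114 to 0.175. It missed the threshold without MCF-10F replicate 1 (-3.63, adjusted p = 0.175), without MCF-10F replicate 2 (-4.64, adjusted p = 0.0656) and without either 1 μM array (-4.14, adjusted p = 0.144 each). It also missed it in a fit of only the 4 arrays (adjusted p = 0.144), which is in effect the same fit as without either 1 μM array. With signals raised to a floor of 16 it missed it too (adjusted p = 0.173).

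DKK1 was higher on all treated arrays than on those of the untreated clone, without passing the threshold. The difference was 2.70 at 1 μM, 6.48-fold (SE 0.67, 95% interval 1.04 to 4.35, adjusted p = 0.112, unadjusted p = 0.0074 from the same limma fit). At 10 μM it was 2.50, 5.67-fold (SE 0.61, 95% interval 1.06 to 3.94, adjusted p = 0.0602). Both intervals lay above 0, and both differences share the 2 arrays of the clone, which had an SD of 1.44 for this gene. Without clone replicate 1 DKK1 passed the threshold at 1 μM (3.71, adjusted p = 0.0447) and at 10 μM (3.52, adjusted p = 0.00822). Without clone replicate 2 the differences were 1.68 (adjusted p = 0.0608) and 1.49 (adjusted p = 0.0371). At 10 μM it also passed with the replicate number as a block (adjusted p = 0.0402), with the dimmest 1 in 3 probe sets left out (adjusted p = 0.0494) and with the mean over the probe sets of each gene (adjusted p = 0.0497).

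DKK1 in treated cells remained below MCF-10F on every array without passing the test. The difference was -1.44 at 1 μM (95% interval -3.10 to 0.21, adjusted p = 0.569) and -1.64 at 10 μM (95% interval -3.08 to -0.20, adjusted p = 0.293). The 10 μM difference passed without either array of the untreated clone (-1.64, adjusted p = 0.0345 each). Of the 10 genes, none rose or fell against MCF-10F at either dose, where 0.142% of all genes rose and 0.47% fell at 1 μM, and 0.759% rose and 1.81% fell at 10 μM. By the methods' rule 1 of the 10 was lower at 1 μM (WNT5A) and 2 at 10 μM (WNT5A and DKK1), beside 2.57% and 3.32% of all genes, and none was higher, beside 1.15% and 1.18%. Treated and MCF-10F arrays did not overlap for 4 of the 10 at 1 μM, beside 50.3% of all genes, and for 5 at 10 μM, beside 50.5%. Between the doses DKK1 differed by -0.19, 10 μM minus 1 μM (95% interval -1.63 to 1.25, adjusted p = 1), an interval that spans a 2-fold change either way. None of the 10 differed between doses by either rule, where 0.0% of all genes passed at an adjusted p and 0.0253% were higher and 0.0759% lower by the methods' rule, and the arrays of the doses did not overlap for 3 of the 10, beside 38.8%.

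**Figure D2:**
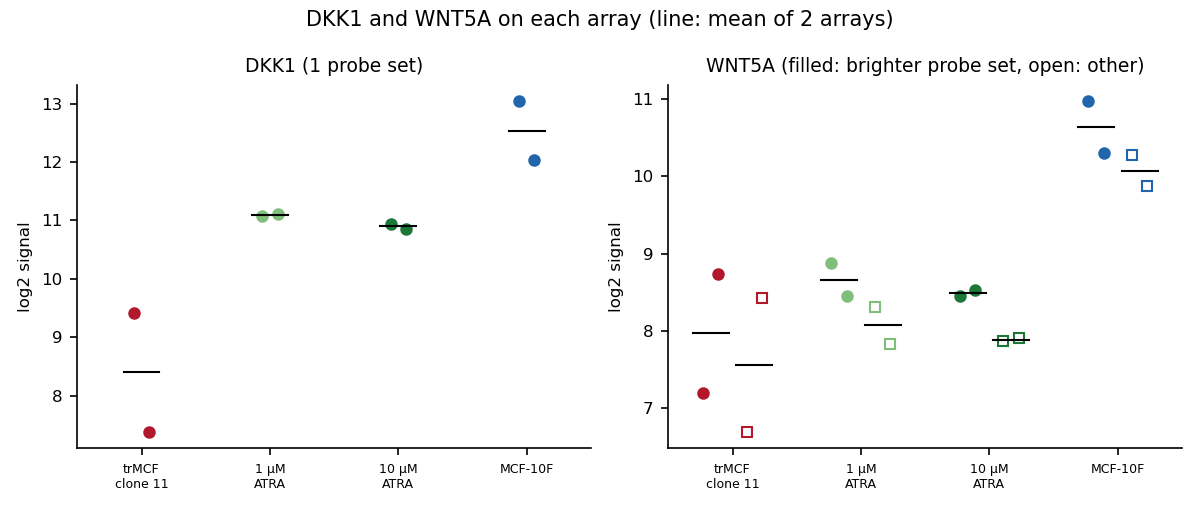
Log2 signal of DKK1 (left) and WNT5A (right) on each of the 8 arrays (points), with the mean of the 2 arrays of a group (lines). Filled points are the brighter probe set and open points the other WNT5A probe set. DKK1 reads 11.08 and 11.11 at 1 μM ATRA, between the clone and MCF-10F, while WNT5A at both doses overlaps the clone.

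WNT5A, the ligand best known for signaling without β-catenin, was also lower in the clone and in treated cells than in MCF-10F, and the treated arrays overlapped those of the untreated clone. It read 7.20 and 8.74 in trMCF clone 11, 8.88 and 8.45 at 1 μM ATRA, 8.45 and 8.53 at 10 μM ATRA, and 10.97 and 10.30 in MCF-10F. The 2 MCF-10F arrays lay above all 6 others. Group means were 7.97 ± 1.09 in the clone, 8.66 ± 0.30 at 1 μM, 8.49 ± 0.05 at 10 μM and 10.63 ± 0.47 in MCF-10F (SD, n = 2 each). The clone differed from MCF-10F by -2.66, or 6.34-fold lower (SE 0.52, 95% interval -3.95 to -1.38), with an adjusted p of 0.0559 that misses the threshold. In 5 of 14 alternatives it passed, with an adjusted p of 0.0196 in a fit of all 8 arrays and 0.00686 without clone replicate 2, where the difference was -3.44. Over all 14 the difference ran from -3.44 to -1.89, with adjusted p of 0.00686 to 0.241. The other probe set read 6.70 and 8.43 in the clone, 8.31 and 7.83 at 1 μM, 7.87 and 7.91 at 10 μM, and 10.28 and 9.87 in MCF-10F, with a difference of -2.51 between the clone and MCF-10F (adjusted p = 0.0718).

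Against the untreated clone WNT5A differed by 0.69 at 1 μM ATRA (95% interval -0.59 to 1.98, adjusted p = 0.54) and by 0.52 at 10 μM (95% interval -0.60 to 1.63, adjusted p = 0.647). The direction rested on clone replicate 1, the lower of the pair, since without it the differences were -0.08 and -0.25. Without clone replicate 2 they were 1.46 (adjusted p = 0.0521) and 1.29 (adjusted p = 0.0304), and the second passed the threshold. Against MCF-10F the treated cells differed by -1.97 at 1 μM, or 3.92-fold lower (95% interval -3.25 to -0.69, adjusted p = 0.254). At 10 μM they differed by -2.15, or 4.42-fold lower (95% interval -3.26 to -1.03, adjusted p = 0.0853). The 10 μM difference passed in 3 of 15 alternatives, namely without either clone array (adjusted p = 0.00858 each) and with only the 4 arrays compared (adjusted p = 0.0338). The other probe set gave -2.00 and -2.18 (adjusted p = 0.271 and 0.0936). Between doses WNT5A differed by -0.17, 10 μM minus 1 μM (95% interval -1.29 to 0.94, adjusted p = 1).

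The arrays of the untreated clone differed in opposite senses for these genes, since replicate 1 was the higher for DKK1 and the lower for WNT5A. Mesenchymal markers were likewise lower in sum in the clone and in treated cells than in MCF-10F, and, unlike DKK1, lower in sum with ATRA than in the clone, though single markers went other ways. Summed over 7 markers (VIM, FN1, CDH2, ZEB1, ZEB2, SNAI2 and TWIST1) their signal was 3343 to 4398 in trMCF clone 11, 1695 to 1892 at 1 μM ATRA, 1524 to 1711 at 10 μM ATRA and 20166 to 28748 in MCF-10F. FN1 (fibronectin) averaged 5.87 in the clone, 6.31 and 6.35 at the 2 doses and 13.85 in MCF-10F, and none of the 7 was under 16 in all groups. CDH2 (N-cadherin), like DKK1, was higher on all treated arrays than in the clone and lower than in MCF-10F, with 5.45 and 5.52 in the clone, 7.34 and 7.55 at 1 μM, 7.87 and 7.85 at 10 μM, and 10.21 and 9.20 in MCF-10F. It fell by 4.22 in the clone against MCF-10F (adjusted p = 0.00859). Against the clone it rose by 2.37 with 10 μM ATRA (adjusted p = 0.00975), and the 1 μM difference was 1.96 (adjusted p = 0.0540). TWIST1 differed by 0.67 in the clone against MCF-10F (adjusted p = 0.627) and by -1.89 and -1.86 with the lower and higher dose against the clone (adjusted p = 0.188 and 0.112). Summed over 7 fibroblast markers the signal was 468 to 684 in the clone, 310 to 316 at 1 μM, 330 to 333 at 10 μM and 1052 to 1783 in MCF-10F. Of these, COL1A1 had mean signals of 374 in the clone, 111 at 1 μM and 81.9 at 10 μM. At 10 μM against the clone COL1A1 fell by 2.11 (adjusted p = 0.0377), LUM, near background, rose by 1.08 (adjusted p = 0.0264), and the others did not pass. The 4 basal markers measured summed to 15844 to 17758, 7403 to 8668, 5558 to 6322 and 10146 to 30365 in the same order of groups. Of these, KRT14 fell by 6.66 at 10 μM against the clone (adjusted p = 0.00836) and by 6.52 against MCF-10F (adjusted p = 0.0127). At 1 μM KRT14 differed by -4.61 from the clone (adjusted p = 0.0663). KRT5, ITGB4 and LAMB3 did not pass in any comparison. Summed over 4 endothelial markers, led by PECAM1, the signal was 222 to 339 in the clone, 660 to 841 at 1 μM, 899 to 1263 at 10 μM and 173 to 1142 in MCF-10F. Summed over 4 immune markers, led by CD14 and with PTPRC under 16 in every group, it was 263 to 381, 603 to 693, 756 to 832 and 216 to 557 in that order. Both sums, like DKK1, were higher on treated arrays than in the clone, but unlike DKK1 their range in MCF-10F spanned the clone. None of these endothelial or immune markers passed against the clone at either dose. PECAM1 had adjusted p = 0.405 and 0.206 and CD14 0.335 and 0.171 with the lower and higher dose. KDR differed the other way, by -0.74 and -0.67. The part of these markers in the DKK1 and WNT5A levels was not tested.

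WNT7A and WNT7B, ligands able to signal through β-catenin, did not pass the test in any comparison. WNT7A read 6.13 and 6.00 in trMCF clone 11, 5.64 and 5.38 at 1 μM ATRA, 5.53 and 5.66 at 10 μM ATRA, and 6.15 and 5.57 in MCF-10F. All 4 treated arrays lay below both arrays of the untreated clone, by a mean of -0.55 at 1 μM (95% interval -1.12 to 0.02, adjusted p = 0.283) and -0.47 at 10 μM (95% interval -0.97 to 0.03, adjusted p = 0.277). The clone differed from MCF-10F by 0.20 (95% interval -0.37 to 0.77, adjusted p = 0.705).

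The brighter WNT7B probe set read 7.23 and 6.77 in the clone, 7.39 and 7.37 at 1 μM, 7.38 and 7.28 at 10 μM, and 7.22 and 7.24 in MCF-10F. Its _x_at suffix marks probes that may also match other transcripts. It differed by 0.38 at 1 μM (95% interval -0.09 to 0.85, adjusted p = 0.359) and 0.33 at 10 μM (95% interval -0.08 to 0.74, adjusted p = 0.361) from the untreated clone, and by -0.23 between the clone and MCF-10F (95% interval -0.70 to 0.24, adjusted p = 0.584). The dimmer WNT7B probe set, without that suffix, showed the larger difference. It read 6.08 and 5.40 in the clone, 7.25 and 7.18 at 1 μM, 6.89 and 6.72 at 10 μM, and 6.75 and 5.86 in MCF-10F. All 4 treated arrays were above both of the clone, by 1.47 or 2.78-fold at 1 μM (95% interval 0.60 to 2.34, adjusted p = 0.104) and 1.07 or 2.09-fold at 10 μM (95% interval 0.30 to 1.83, adjusted p = 0.11), so the WNT7B probe sets disagree in size and neither passed the threshold.

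**Figure D3:**
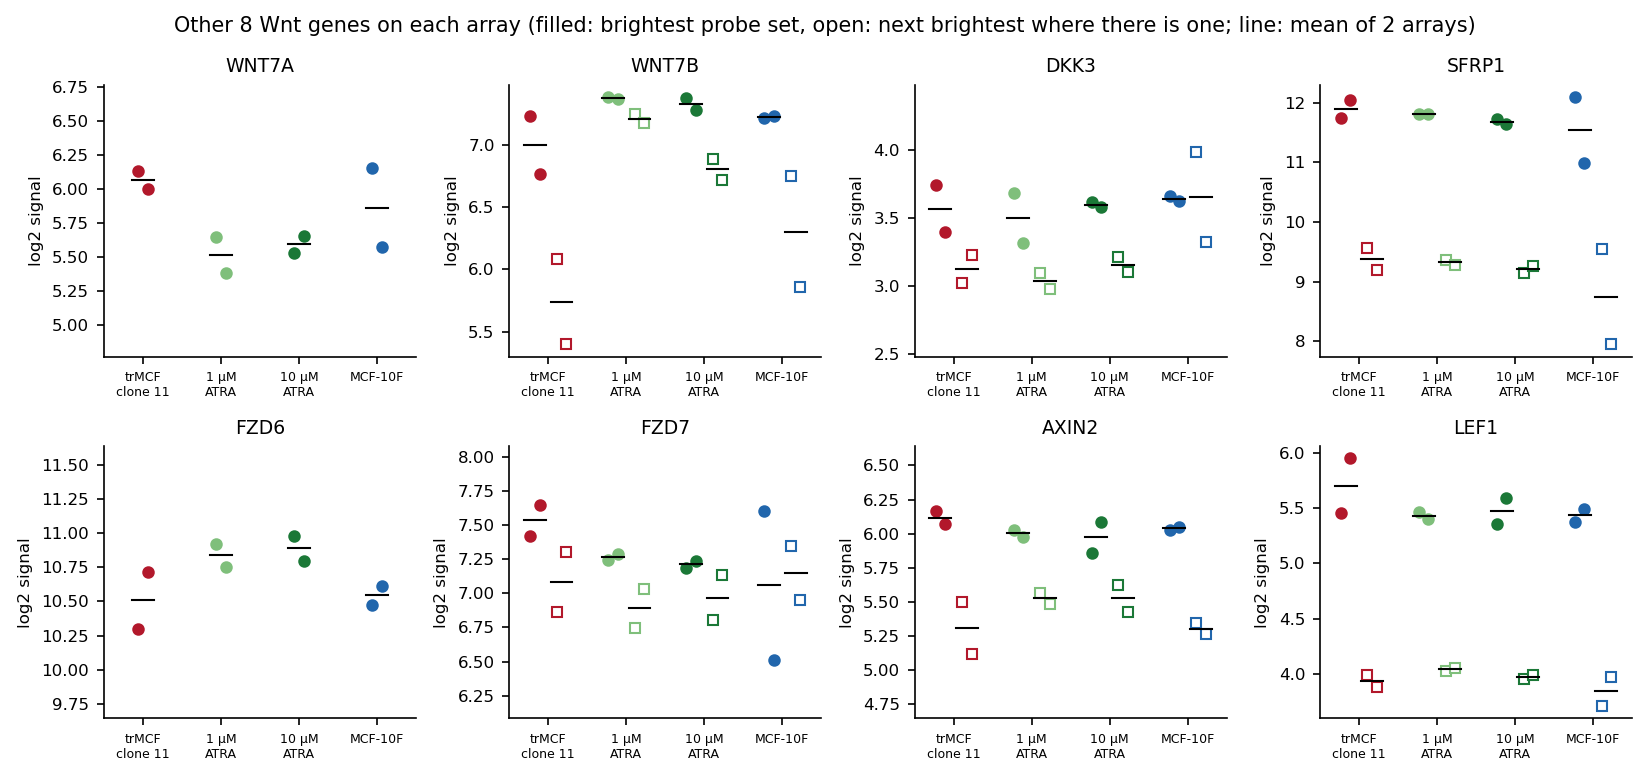
Log2 signal of the other 8 Wnt genes on each of the 8 arrays, with the mean of the 2 arrays of a group as a line. Filled points are the brightest probe set and open points the next brightest, and each panel has its own axis. SFRP1 and FZD7 are low on 1 of the 2 MCF-10F arrays (10.99 and 6.51), and the open points of WNT7B at 1 μM ATRA (7.25 and 7.18) lie above those of the clone.

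The other inhibitors differed from DKK1. SFRP1, which binds Wnt ligands outside the cell, was bright in every group, at 11.74 and 12.04 in the clone, 11.81 and 11.81 at 1 μM ATRA, 11.73 and 11.64 at 10 μM ATRA, and 12.10 and 10.99 in MCF-10F. Differences were 0.34 between the clone and MCF-10F (95% interval -0.54 to 1.23, adjusted p = 0.672), -0.08 at 1 μM (95% interval -0.96 to 0.81, adjusted p = 0.937) and -0.20 at 10 μM (95% interval -0.97 to 0.57, adjusted p = 0.821) against the untreated clone. The spread was largest in MCF-10F, where replicate 2 was the lower also at 2 other SFRP1 probe sets (7.95 beside 9.54, and 6.78 beside 8.43). Without it the difference between the clone and MCF-10F was -0.21. DKK3, a Dickkopf relative, was near background. Its 6 probe sets had mean signals from 6.50 to 12.9 in all 4 groups, under 16, and the brightest differed by -0.07, -0.07 and 0.03 in the same 3 comparisons, so a change in DKK3 was not detectable at this signal.

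Neither Frizzled receptor passed the test in these comparisons. FZD6, a receptor of the polarity branch, read 10.30 and 10.72 in the clone, 10.92 and 10.76 at 1 μM, 10.98 and 10.80 at 10 μM, and 10.48 and 10.61 in MCF-10F. All 4 treated arrays were above both of the untreated clone, by 0.33 at 1 μM (95% interval -0.14 to 0.80, adjusted p = 0.422) and 0.38 at 10 μM (95% interval -0.04 to 0.80, adjusted p = 0.296), intervals that end below a 2-fold rise. The clone differed from MCF-10F by -0.04 (95% interval -0.51 to 0.43, adjusted p = 0.943). FZD7, a receptor known from mammary stem cells, read 7.42 and 7.65 in the clone, 7.24 and 7.29 at 1 μM, 7.19 and 7.23 at 10 μM, and 7.61 and 6.51 in MCF-10F. It differed by -0.27 (95% interval -1.13 to 0.59, adjusted p = 0.736) and -0.32 (95% interval -1.07 to 0.43, adjusted p = 0.679) with the lower and higher dose, and by 0.48 between the clone and MCF-10F (95% interval -0.39 to 1.34, adjusted p = 0.53). Without MCF-10F replicate 2 that last difference was -0.07, and the dimmer FZD7 probe set also gave -0.07.

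The canonical targets did not pass the test either. AXIN2, a scaffold of the complex that breaks down β-catenin and a widely used readout of canonical Wnt activity, read 6.17 and 6.07 in the clone, 6.03 and 5.97 at 1 μM, 5.86 and 6.09 at 10 μM, and 6.03 and 6.05 in MCF-10F. Its differences were 0.08 between the clone and MCF-10F (95% interval -0.26 to 0.42, adjusted p = 0.81), -0.12 at 1 μM (95% interval -0.46 to 0.22, adjusted p = 0.711) and -0.15 at 10 μM (95% interval -0.47 to 0.18, adjusted p = 0.666) against the clone, intervals that lie within a 2-fold change. LEF1, the transcription factor that carries β-catenin to DNA, read 5.45 and 5.95 in the clone, 5.46 and 5.40 at 1 μM, 5.35 and 5.59 at 10 μM, and 5.37 and 5.49 in MCF-10F. It differed by 0.27 (95% interval -0.23 to 0.76, adjusted p = 0.541), -0.27 (95% interval -0.76 to 0.23, adjusted p = 0.538) and -0.23 (95% interval -0.68 to 0.22, adjusted p = 0.611) in the same comparisons. Both genes were dim, with mean signals of 63.0 to 69.5 for AXIN2 and 43.2 to 52.7 for LEF1, and 1 of the other AXIN2 and both other LEF1 probe sets were near or under 16.

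Beyond the 10 genes, 105 of 110 other listed Wnt pathway genes were measured. In the clone against MCF-10F 2 rose (1.90% of the 105, beside 1.88% of all genes) and none fell (beside 2.64%), and 5 were higher and 6 lower by the methods' rule (4.76% and 5.71%, beside 3.24% and 5.96%). With 1 μM ATRA 3 rose and 2 fell against the untreated clone (2.86% and 1.90%, beside 0.971% and 0.925% of all genes), and 5 were higher and 8 lower by the methods' rule (4.76% and 7.62%, beside 4.87% and 3.02%). With 10 μM ATRA 4 rose and 8 fell against the clone (3.81% and 7.62%, beside 3.94% and 3.89%), and by the methods' rule the counts were again 5 and 8 (beside 4.66% and 3.67%). The share that fell with ATRA was thus above that of all genes at both doses, and at 1 μM so was the share that rose. The calls at 1 μM are only 3 and 2 genes. With quantile normalization, the floor of 16 or the replicate block, 0 of the 105 fell at 1 μM against the clone. These differences were not tested, and these comparisons share the arrays of the clone. Against MCF-10F none rose or fell at 1 μM, beside 0.142% and 0.47% of all genes. By the methods' rule 1 was higher and 4 lower there (0.952% and 3.81%, beside 1.15% and 2.57%). At 10 μM against MCF-10F 1 rose and 3 fell (0.952% and 2.86%, beside 0.759% and 1.81%). The methods' rule gave 1 higher and 3 lower there as well, beside 1.18% and 3.32% of all genes. None differed between doses by either rule. At an unadjusted p under 0.05 alone limma gave 25 of the 105 in the clone against MCF-10F, 27 and 30 at 1 and 10 μM against the clone, 16 and 21 against MCF-10F, and 1 between doses. How many of all genes passed at that p was not counted, so no excess in the 105 can be read from these counts. None of 14 other ligands, 7 R-spondins and their receptors or 13 other Wnt receptors passed the adjusted threshold in any comparison. By the methods' rule 1 of the 13 receptors was lower in the clone against MCF-10F (7.69%, beside 5.96% of all genes). At each dose 1 was higher and 1 lower against the clone by that rule (7.69% each). The study lists the receptor FZD8 as lower in the clone and higher with 1 μM ATRA. CCND1, CELSR2, TNKS and CD44 are among the genes that the study picked out on these arrays, so their changes are no independent evidence. The same holds for CDH2, FN1 and MEIS3P1, which are named in other paragraphs.

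Of 12 other β-catenin targets, CCND1 and FOSL1 rose with ATRA at both doses against the clone, and none fell at its brightest probe set, though CD44 fell at others. CCND1 (cyclin D1, which drives entry into S phase) read 7.80 and 7.24 in the clone, 10.63 and 10.47 at 1 μM, 10.55 and 10.40 at 10 μM, and 10.40 and 9.01 in MCF-10F. It rose by 3.03 at 1 μM (SE 0.46, adjusted p = 0.0471) and 2.95 at 10 μM (SE 0.42, adjusted p = 0.0131), and its other probe set by 2.92 and 2.69. In the clone against MCF-10F it differed by -2.18 (adjusted p = 0.0643) and at the other probe set by -2.59 (adjusted p = 0.0184), which did pass. The treated arrays were above both of the clone and not below those of MCF-10F. FOSL1, an AP-1 subunit, read 6.12 and 6.77 in the clone, 9.09 and 8.41 at 1 μM, 8.51 and 7.83 at 10 μM, and 8.29 and 7.76 in MCF-10F, and rose by 2.31 (adjusted p = 0.0453) and 1.73 (adjusted p = 0.0379). The CCND1 call held in 9 of 14 alternatives at 1 μM and 12 of 15 at 10 μM, and that of FOSL1 in 6 of 14 and 8 of 15, being lost at 1 μM with the replicate block (adjusted p = 0.0686). Against MCF-10F, MMP7 (a matrix protease) fell by 2.04 at 10 μM (adjusted p = 0.0260) and CD44 (a hyaluronan receptor) fell by 0.92 (adjusted p = 0.0222). The brightest CD44 probe set gave -0.44 in the clone against MCF-10F, where another gave 0.96 (adjusted p = 0.0443) and most others were also above 0. CD44 probe sets thus disagree in direction there. That other CD44 probe set fell by 2.10 at 10 μM ATRA against the clone (adjusted p = 0.00239), while the brightest gave -0.48 (adjusted p = 0.0864). At 1 μM it fell by 1.79 (adjusted p = 0.0201), while the brightest gave -0.38 (adjusted p = 0.238). Most other CD44 probe sets likewise fell past the threshold at both doses, while some, like the brightest, did not.

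Among 16 other inhibitors only KREMEN1, a receptor that takes up the LRP co-receptors together with Dickkopf proteins, fell. It read 8.48 and 7.70 in the clone, 6.28 and 6.06 at 1 μM, 6.15 and 5.94 at 10 μM, and 6.60 and 6.97 in MCF-10F, and fell by 1.92 at 1 μM (adjusted p = 0.0478) and fell by 2.05 at 10 μM (adjusted p = 0.0109). Its 4 other probe sets differed by -0.12 to -0.88 without passing. At 1 μM the call held in 4 of 14 alternatives and was lost with the replicate block (adjusted p = 0.0686) and with the mean over probe sets (-0.80, adjusted p = 0.0889). At 10 μM it held in 11 of 15, with -0.80 for the mean over probe sets (adjusted p = 0.0386). WLS, which carries Wnt ligands to the cell surface, fell by 0.84 at 10 μM (adjusted p = 0.0320). Its other probe sets fell by 1.34 and 1.21 there (adjusted p = 0.0105 and 0.00616). At 1 μM the brightest WLS probe set gave -0.66 (adjusted p = 0.114). The others gave -1.07 (adjusted p = 0.0596) and -0.95 (adjusted p = 0.0444) at that dose, and only the last passed.

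In the β-catenin turnover group, TNKS (tankyrase, which marks axin for breakdown) read 10.34 and 10.16 in the clone, 8.95 and 9.09 at 1 μM, 9.01 and 9.08 at 10 μM, and 8.18 and 8.62 in MCF-10F. It rose by 1.85 in the clone against MCF-10F (adjusted p = 0.0170) and fell by 1.21 at 10 μM against the clone (adjusted p = 0.0147), while its 3 dimmer probe sets did not pass in any comparison. With the mean over probe sets both calls were lost (0.62, adjusted p = 0.0635, and -0.36, adjusted p = 0.152). The kinase gene CSNK1D fell by 0.92 at 10 μM (adjusted p = 0.0316) at its brightest probe set, where the other 2 gave 0.09 and -0.15 (adjusted p = 0.848 and 0.779) and the mean of all 3 -0.33 (adjusted p = 0.198). In the nuclear group, CTNNBIP1, an inhibitor that keeps β-catenin from TCF factors, fell by 1.16 (adjusted p = 0.0194) and the co-repressor CTBP2 rose by 0.63 (adjusted p = 0.0315) at 10 μM, where its 5 other probe sets gave -0.28 to 1.19 and 2 of them passed.

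In the polarity and calcium branch, to which WNT5A signals, genes changed in both directions. CELSR2, a polarity cadherin, read 9.04 and 8.98 in the clone, 7.99 and 7.86 at 1 μM, 7.66 and 7.72 at 10 μM, and 7.56 and 8.00 in MCF-10F. It rose by 1.23 in the clone against MCF-10F (adjusted p = 0.0352) and fell by 1.32 at 10 μM against the clone (adjusted p = 0.0109). The first call was lost with the replicate block (adjusted p = 0.0585) and held in 6 of 14 alternatives, and the second held in 13 of 15. DAAM1, a formin that links Dishevelled to actin, read 8.95 and 9.40 in the clone, 10.50 and 10.43 at 1 μM, 10.23 and 10.24 at 10 μM, and 9.25 and 9.13 in MCF-10F, above both untreated groups on all treated arrays. It rose by 1.29 (adjusted p = 0.0454) and 1.05 (adjusted p = 0.0198) with the lower and higher dose against the clone and by 1.04 at 10 μM against MCF-10F (adjusted p = 0.0356). None of its 4 other probe sets passed, and 2 of them gave -0.26 and -0.01 at 1 μM and -0.36 and -0.02 at 10 μM against the clone. With the mean over probe sets the 3 DAAM1 differences were 0.59, 0.45 and 0.64 (adjusted p = 0.143, 0.151 and 0.0945). The calls held in 4 of 14, 8 of 15 and 6 of 15 alternatives, and the replicate block ended those at 1 μM (adjusted p = 0.0721) and against MCF-10F (adjusted p = 0.0532). CAMK2D, a calcium-dependent kinase, fell by 1.31 at 1 μM (adjusted p = 0.0495) and fell by 1.06 at 10 μM (adjusted p = 0.0233). Its calls held in 7 of 14 and 9 of 15 alternatives, the first being lost with the replicate block (adjusted p = 0.0683), and 1 of its 4 other probe sets passed at both doses. PRICKLE2 fell by 2.30 at 10 μM against MCF-10F (adjusted p = 0.0139) and fell by 1.58 against the clone (adjusted p = 0.0262).

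These counts shifted with 1 array left out. A group left with 1 array adds nothing to the estimate of the spread, so these fits also hold less information. How far the shifts stem from the values of the array left out was not tested. The share of all genes called in these fits was not counted, so no excess in the 105 can be read from the counts below. In the clone against MCF-10F, 0 of the 105 were called without MCF-10F replicate 1 or without either 1 μM array, 1 without clone replicate 1 and 19 without clone replicate 2. For 1 μM ATRA against the clone the count was 0 without clone replicate 1 or either 1 μM array, 3 without either MCF-10F array and 16 without clone replicate 2. For 10 μM against the clone it was 0 without either 10 μM array, 5 without either 1 μM array and 26 without clone replicate 2. For 10 μM against MCF-10F it was 0 without either 10 μM or either 1 μM array, 2 without either MCF-10F array and 7 without either clone array. At 1 μM against MCF-10F it was 4 without either clone array.

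**Figure D4:**
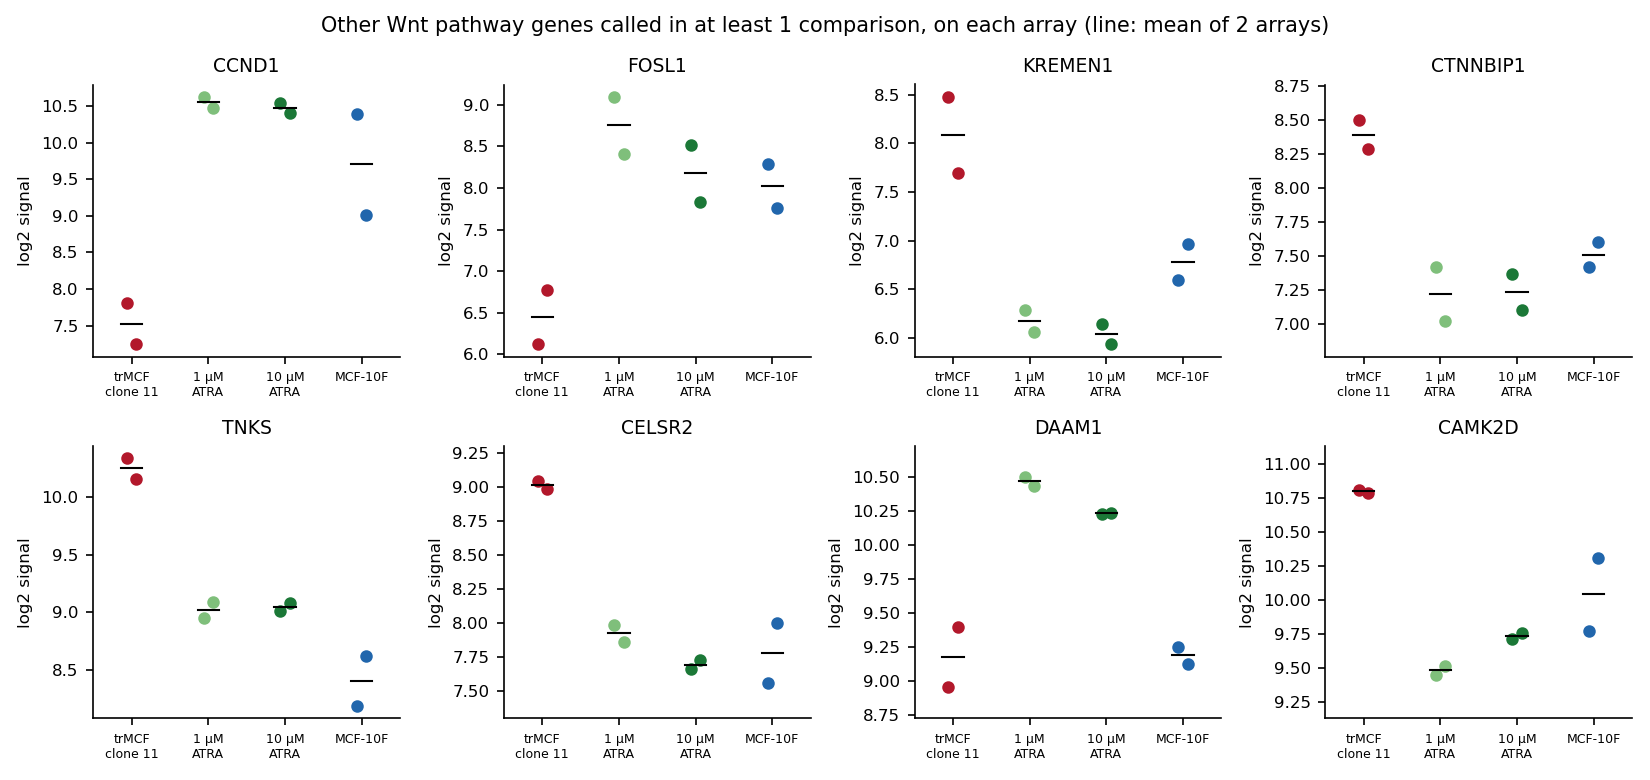
Log2 signal of 8 other Wnt pathway genes on each of the 8 arrays (points), with the mean of the 2 arrays of a group (lines). Each panel has its own axis. CCND1 (10.63 and 10.47 at 1 μM ATRA) and FOSL1 are higher on all 4 treated arrays than in the clone, KREMEN1, CTNNBIP1, TNKS, CELSR2 and CAMK2D are lower, and DAAM1 is above both untreated groups.

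Over the 4 group means, each centered on its own mean, the genes most like WNT5A among 16357 were SLC39A8, a zinc and manganese importer, and ABI3BP, with root mean square differences of 0.0604 and 0.0851. SLC39A8 read 8.84 and 9.99 in the clone, 9.97 and 10.03 at 1 μM, 9.91 and 9.99 at 10 μM, and 11.34 and 12.93 in MCF-10F. Those most like DKK1 were MEIS3P1 and COXFA4L3, at 0.26 and 0.278. COXFA4L3 read 9.62 and 7.03 in the clone, 11.32 and 10.68 at 1 μM, 10.73 and 10.44 at 10 μM, and 10.88 and 12.67 in MCF-10F, so the higher MCF-10F array was the other one than for DKK1. With 4 group means these are descriptions of likeness only.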

How the data were processed

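RNA of 8 samples was hybridized to Affymetrix U133 Plus 2.0 arrays. The authors summarized probe intensity to 1 signal per probe set, normalized between arrays, and deposited it on a linear intensity scale. The methods name MAS 5.0 with global scaling and also Iterative Plier 16 in GeneSpring, and the values deposited are not assigned to either. Raw probe intensities were not used.

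Values were log2-transformed only. The table holds 54675 probe sets, 62 of them controls that were dropped. Of the 54613 tested, 41091 name 1 gene, 1801 several and 11721 none in the platform annotation. Groups were compared with limma 3.58.1 in R 4.3.3 (lmFit, eBayes), using all 8 arrays where 10 μM entered and otherwise the other 6, as the methods did. The scripts were tested on simulated data. With 2 arrays per group, their number limits the precision.

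The text names all 10 genes. It also names up to 3 genes per pathway list and comparison with an adjusted p under 0.05, and the 2 genes most like each of the 10 whose group means spanned over 2. PRICKLE2 at 10 μM against the clone fell outside that rule. Members and lists were chosen with earlier results of these data known. Alternatives were all 8 or only the 4 arrays compared, quantile normalization, the dimmest probe sets left out, a trend and robust prior, a floor of 16, the replicate number as a block, the mean over probe sets, the methods' rule, and each array left out. Leaving out either array of a group that is not compared gives the same result, so some of the alternatives counted repeat each other. Promoters are from RefSeq. Figures were drawn with matplotlib 3.10.9.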

Additional observations from a re-analysis of the deposited data

How the results depend on the processing

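Of the 10 genes, 1 was called in trMCF clone 11 against MCF-10F. That count was 2 in a fit of all 8 arrays, with the dimmest 1 in 3 probe sets left out, with a trend and robust prior, with the mean over probe sets and by the methods' 2-fold rule, 0 with only the 4 arrays and 0 with the floor of 16, and 0 to 2 with 1 array left out. At 1 μM ATRA against the clone 0 were called, 1 by the methods' rule and 0 to 1 with 1 array left out. At 1 μM against MCF-10F it was 0, and 1 by the methods' rule. At 10 μM against the clone it was 0, but 1 with the dimmest probe sets left out, with the replicate block, with the mean over probe sets and by the methods' rule, and 0 to 2 with 1 array left out. At 10 μM against MCF-10F it was 0, but 1 with only the 4 arrays, 2 by the methods' rule and 0 to 2 with 1 array left out. Between doses it was 0 in each alternative run. Of the 105 other pathway genes, 2 were called in the clone against MCF-10F, but 8 in a fit of all 8 arrays, 0 with only the 4 arrays or the floor, 1 with the trend and 11 by the methods' rule. At 1 μM against the clone it was 5, but 9 with all 8 arrays, 3 with only the 4 arrays or the trend, 2 with quantile normalization, 1 with the floor or the replicate block and 13 by the methods' rule. At 1 μM against MCF-10F it was 0, but 4 with all 8 or only the 4 arrays and 5 by the methods' rule. At 10 μM it was 12 against the clone, but 2 with only the 4 arrays or the floor, and 4 against MCF-10F, but 2 with the floor and 7 with the mean over probe sets. The cause of these shifts was not tested, apart from the fewer arrays in some fits. Apart from the methods' rule, the share of all genes called in the alternatives was not counted, so no excess can be read from these counts.

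With 1 array left out, the difference between the clone and MCF-10F ran from -0.091 to 0.49 for WNT7A, -0.46 to 0.0050 for WNT7B, -0.24 to 0.10 for DKK3, -0.21 to 0.90 for SFRP1, -0.24 to 0.17 for FZD6 and -0.071 to 1.02 for FZD7. That of 1 μM ATRA against the clone ran from -0.078 to 1.46 for WNT5A, -0.25 to 0.11 for DKK3 and -0.23 to 0.075 for SFRP1. That of 10 μM against the clone ran from -0.25 to 1.29 for WNT5A, -0.14 to 0.20 for DKK3 and -0.48 to 0.020 for LEF1, and that between doses from -0.39 to 0.040 for WNT5A. With the mean over probe sets AXIN2 turned to -0.033 in the clone against MCF-10F and to 0.023 at 1 μM. DKK3 has no value with the floor of 16 in some comparisons, since every array was at the floor. Over all single-gene values, 656 kept direction and side of the threshold, 145 lost it, 17 gained it and 17 turned. The 145 are all losses of a call, while the 656 include differences that had not passed and stayed so. The 656 thus do not measure how often calls held.

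The replicate numbers were not taken to pair the arrays. Deviations of same-numbered arrays correlated at -0.06 to 0.35 over the 6 pairs of groups, and not every value was above 0.1. The largest, 0.35, was between the doses. Whether same-numbered arrays share a batch is not stated and was not tested. With the replicate number as a block, 7 of 58 single-gene values changed side. DKK1 at 10 μM passed (adjusted p = 0.0402), CELSR2 in the clone (0.0585), DAAM1 at 10 μM against MCF-10F (0.0532) and KREMEN1, FOSL1, DAAM1 and CAMK2D at 1 μM (0.0683 to 0.0721) missed the threshold, and no other call of a named gene changed. Low signal limits DKK3, whose mean signals were under 16 in every group.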
